A study of Mus musculus with 8 samples.

Results

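Shelterin is the protein complex that covers mammalian telomeres, and the 7 mouse genes that encode its subunits, Terf2ip, Terf1, Terf2, Tinf2, Acd, Pot1a and Pot1b, were examined in gonadal white fat of mice with and without RAP1. Terf2ip encodes RAP1 itself. Members were taken by identity: every non-control probe whose transcript accession RefSeq assigns to one of the 7 genes was kept and is described separately. This gave 11 probes on 20 spots per array, out of 55681 gene probes on the array. Terf2 had 3 probes, Terf2ip and Tinf2 had 2 each, and Terf1, Acd, Pot1a and Pot1b had 1 each. A symbol could be attached to 26056 probes (46.8%), which cover 19752 symbols, and probes of these genes may also lie among the unnamed ones.

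Rap1 -/- mice carried a whole-body deletion, made from a floxed Rap1 allele with an EIIa-cre transgene. The EIIa promoter, of viral origin, is active in germ cells and early embryos, and the transgene was later bred out of the colony. WT mice were the controls. Both groups were 10 weeks old, on a C57BL6/129SV (90%:10%) background, and per the study's methods female and sampled before the onset of obesity. Each group had 4 biological replicates with 1 one-colour array each, and p-values measure the spread between these animals. The knockout affects every tissue, so the fat was taken from an animal lacking RAP1 throughout. The excised exons and the positions of the probes within the transcripts are not given in the sources used here.

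In mammals, TRF1 and TRF2, encoded by Terf1 and Terf2, bind the double-stranded TTAGGG repeats of the telomere. TIN2, encoded by Tinf2, bridges both of them and holds TPP1, the product of Acd. TPP1 carries POT1, which binds the single-stranded overhang. Mice have a pair of POT1 genes, Pot1a and Pot1b, where humans have 1. RAP1 has no strong DNA binding of its own in mammals and is brought to telomeres by TRF2. It also binds at sites along chromosome arms and acts outside the telomere, where it has been linked to transcription and to NF-kB signalling. The comparison asked whether the transcripts of its partner subunits differed in level where RAP1 is lost.

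All signals below are log2 of the processed signal relative to the 75th percentile of the same array, so that 0 is the level of that percentile. The percentile lay between 392 and 497 intensity units on the Rap1 -/- arrays and between 302 and 431 on the WT arrays. Between 59.7% and 65.2% of spots were called well above background per array, and no spot was saturated. All 8 white adipocyte markers were well above background on all 8 arrays. Their summed linear level was 2960 to 3240 times the percentile in Rap1 -/- fat and 3200 to 4010 in WT fat. The summed level of 6 mesothelium markers, all well above background on every array, was 34.3 to 41.5 in Rap1 -/- fat and 14.9 to 39.4 in WT fat. That of 5 skeletal muscle markers, 2 of them above background on every array, was 3.75 to 561 in Rap1 -/- fat and 25.5 to 252 in WT fat. The part of tissue makeup in the results was not tested, and fewer cells of a type and less RNA per cell cannot be told apart in bulk fat. Each of 2 slides held 2 arrays of each genotype. On both slides WT samples occupied earlier array positions than Rap1 -/- samples, so position and genotype cannot be told apart.

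Sequence is shown for the start of Terf2ip, because its neighbour serves below as a measure of the surrounding locus, and for Pot1b, the member whose promoter window holds the telomeric hexamer. Both are RefSeq sequence on build GRCm38.p6. Terf2ip starts head to head with Kars, the lysyl-tRNA synthetase gene. The 30 bases at chr8:112011342-112011371 on the plus strand hold both starts, with the 4 bases between them in capitals.
Terf2ip and Kars starts: taagtcctgcctcTTCCgggaaagagggcg
Promoter windows of 300 bases, from 250 before to 50 after the start, were at hand for 6 of the 7 genes, all but Terf1. The hexamer TTAGGG, on either strand, lay in both windows of Pot1b and in none of the windows of Terf2ip, Terf2, Tinf2, Acd or Pot1a. Of 32851 promoter windows in the same table, 3483 (10.6%) held it. A pair of hexamers in tandem, TTAGGGTTAGGG, was in 4 windows of the table (0.0122%) and in no member's. In Pot1b the 250 bases before the start, chr17:55712637-55712886 on the minus strand, hold the hexamer, in capitals, beginning at base -125.
Pot1b: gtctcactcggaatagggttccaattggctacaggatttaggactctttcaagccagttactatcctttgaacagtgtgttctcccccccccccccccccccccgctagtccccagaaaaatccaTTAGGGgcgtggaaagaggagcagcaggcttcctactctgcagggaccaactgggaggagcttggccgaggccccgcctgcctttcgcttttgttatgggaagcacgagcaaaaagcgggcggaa
These matches describe letters in a window only.

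The targeted gene changed on both of its probes, in opposite directions. Signal of the Terf2ip probe A_52_P381806 was near the bottom of the scale in Rap1 -/- fat and around the 75th percentile in WT fat. The other probe, A_55_P2094079, gave 5.22 times more signal in Rap1 -/- fat than in WT fat. These were the only 2 of 33982 probes tested to pass an adjusted p of 0.05 (0.00589% of probes, 0.00294% in each direction) in limma with Benjamini-Hochberg adjustment. None of the 9 probes of the other 6 shelterin genes passed. All 11 member probes passed the filter on dim probes, which asked for 4 arrays with signal well above background, and 9 of them had it on all 8 arrays. At a looser adjusted p of 0.15, 4 probes passed (0.0118%), the others being Calhm5 and Zfhx3.

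Probe A_52_P381806 read -7.58, -7.43, -7.13 and -7.58 on the Rap1 -/- arrays, against 0.06, 0.26, 0.49 and 0.23 on the WT arrays. All 4 Rap1 -/- arrays were far below all 4 WT arrays, and 2.27% of probes tested were likewise lower without overlap. None of the Rap1 -/- arrays was called well above background, whereas all 4 WT arrays were. In processed intensity it gave 2.60, 2.68, 2.80 and 2.27 units in Rap1 -/- fat and 391, 517, 425 and 496 units in WT fat. Between 1.47% and 3.42% of gene probes were dimmer than it on a Rap1 -/- array, and between 76.5% and 79.2% on a WT array. The difference was -7.69 ± 0.14 (SE, n = 4 each; adjusted p = 1.9e-07 by limma), with a 95% interval from -8.01 to -7.38. A probe that passed the filter only through WT fat had to differ. Since the Rap1 -/- readings are not well above background, the size of the fall is uncertain on this scale. With each Rap1 -/- array set at its lowest spot called well above background (mean -5.17), signal was 43.1-fold lower in Rap1 -/- fat. This is no strict bound, because uncalled spots can read above that level, as some Pot1b spots did on Rap1 -/- replicate 2. The size depended on the background correction: the difference was -3.43 after normexp with an offset of 50, and -3.35 in the deposited value table. It was -7.67 on slide 1 and -7.72 on slide 2.

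Probe A_55_P2094079 read 1.01, 0.84, 0.98 and 1.06 on the Rap1 -/- arrays, against -1.49, -1.39, -1.27 and -1.48 on the WT arrays. All 4 Rap1 -/- arrays were above all 4 WT arrays, as for 0.889% of probes tested, and all 8 arrays were well above background. Intensities were 1000, 830, 773 and 908 units in Rap1 -/- fat and 133, 164, 125 and 151 units in WT fat. The mean was 0.97 ± 0.09 in Rap1 -/- fat and -1.41 ± 0.10 in WT fat (SD, n = 4 each). The difference of 2.38 ± 0.09 (SE; adjusted p = 4.94e-05 by limma) corresponds to 5.22-fold more signal, with a 95% interval from 4.52-fold to 6.03-fold. It was 2.37 on slide 1 and 2.40 on slide 2. An exact permutation test over the 8 arrays gave p = 0.0286, two-sided, for each Terf2ip probe, the smallest that 70 assignments of 4 and 4 arrays allow. For A_52_P381806, which passed the filter only through WT fat and so had to differ, this p adds no support.

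**Figure D1:**
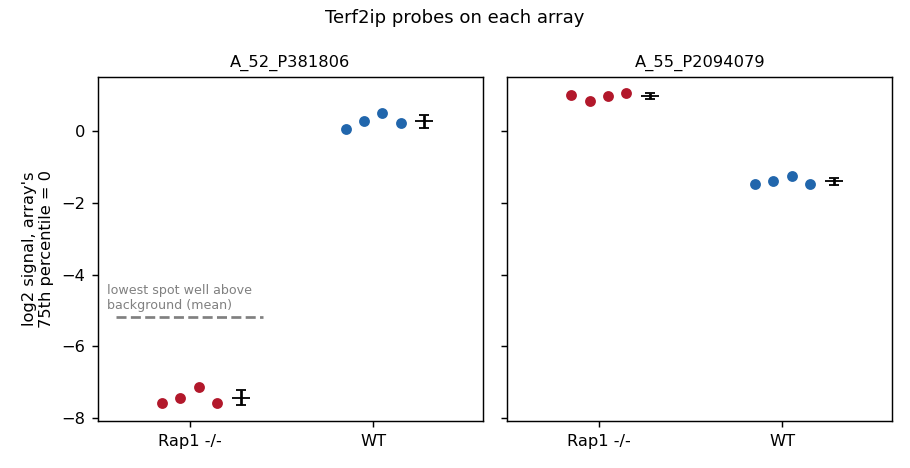
Signal of the 2 Terf2ip probes on each array, in log2 units above or below the 75th percentile of each array, in Rap1 -/- (red, left) and WT (blue, right) fat, with the mean and SD of 4 arrays in black. The grey line is the mean over Rap1 -/- arrays of the lowest spot called well above background, -5.17, and all 4 Rap1 -/- readings of A_52_P381806 lie under it, while for A_55_P2094079 the Rap1 -/- arrays lie above the WT arrays.

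Of 33982 probes, both of Terf2ip included, 14 differed by 2 or more on the log2 scale (0.0412%). The largest fall outside Terf2ip was -5.60 ± 3.77 (SE) for Myh4, a myosin of fast muscle, called above background on 2 Rap1 -/- arrays. The fall of A_52_P381806 was -7.69 as read, and -5.43 with the Rap1 -/- arrays set at their lowest called spots. Myh4 was not reset in this way, so these falls were not ordered by size. The highest rise outside Terf2ip was 2.08, and neither that probe nor Myh4 passed the threshold. A pattern of detection on all WT and no Rap1 -/- arrays was shared by 3 of 55668 probes (0.00539%), A_52_P381806 included. The other pair was dim in WT fat, with means of -4.34 and -4.23, and differed by at most 1.16.

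**Figure D2:**
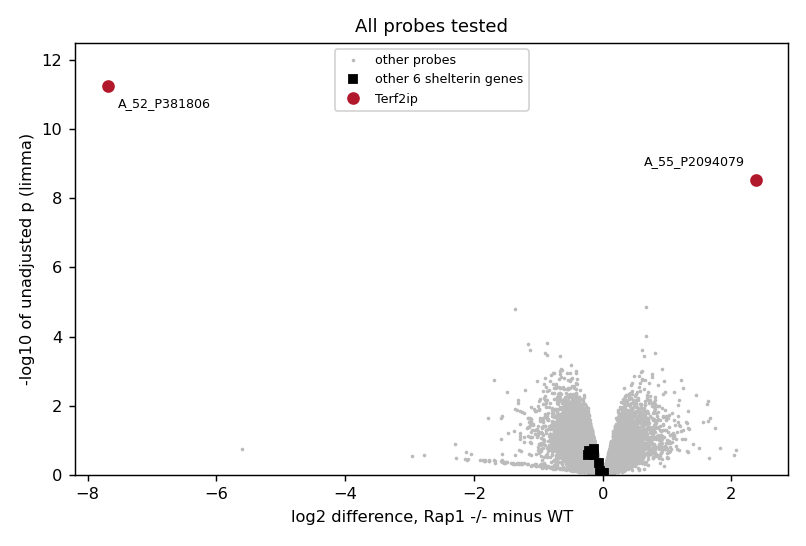
Log2 difference (Rap1 -/- minus WT, horizontal) against -log10 of the unadjusted p of limma (vertical) for 33982 probes. The 2 Terf2ip probes (red) stand apart at -7.69 and 2.38, and the 9 probes of the other 6 shelterin genes (black) lie among the remaining probes (grey).

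The profiles nearest to the Terf2ip probes among named genes stayed some way off. Likeness was taken as the root mean square distance between probe-centred values over the 8 arrays, and a profile with no change at all would score 3.85 for A_52_P381806. The nearest were Dlx6, a homeobox gene, at 3.14, Zfhx3, a zinc finger homeobox gene, at 3.17, and Shisa6 at 3.24. Dlx6 averaged -4.14 in Rap1 -/- fat and -2.66 in WT fat, a difference of -1.48 ± 0.38 (SE, adjusted p = 0.897 by limma). Zfhx3 averaged 0.35 in Rap1 -/- fat and 1.72 in WT fat, a difference of -1.36 ± 0.15 (adjusted p = 0.136 by limma). For A_55_P2094079, against 1.20 for a flat profile, the nearest were Lmntd1 at 0.71, Pla2g5, a secreted phospholipase gene, at 0.73 and Stag3, the meiotic cohesin subunit gene, at 0.74. Lmntd1 and Stag3 were well above background on 4 Rap1 -/- arrays and on 0 WT arrays, a pattern met by 29 of 55668 probes (0.0521%). They passed the filter only through Rap1 -/- fat and so had to differ. Pla2g5, above background on all 8 arrays, had a difference of 1.45 ± 0.38 (SE, adjusted p = 0.897 by limma). All of these nearest probes, Dlx6 and Zfhx3 included, were picked from the same 8 arrays for likeness to a profile split by genotype. Their differences and p-values follow from that choice and are not separate tests.

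For the other 6 subunit genes no difference between genotypes was detected. Of their 9 probes, 7 had a lower and 2 a higher mean in Rap1 -/- fat, with a median difference of -0.13, beside -0.04 for all probes tested, 59.6% of which had a lower mean in Rap1 -/- fat. The sign of that median was not fixed: it was 0.00 in the deposited value table and 0.08 after scaling to the E1A spike-in, where the median of all probes was 0.17. The smallest adjusted p by limma was 0.897, and no probe had an unadjusted p under 0.05, against 4.83% of all probes tested. No probe's groups were free of overlap, against 3.16% of all probes. Exact permutation p-values ran from 0.143 to 0.914. The half-width of the 95% interval was 0.18 to 0.43 with a median of 0.27, beside a median of 0.33 over all probes. Together the 9 intervals reached from -0.65 to 0.32, and without Pot1b from -0.55 to 0.32. With 4 arrays per group, a true difference of 0, or of any other size within a probe's interval, remains compatible with its readings.

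Terf1 encodes TRF1, one of the duplex repeat binders. Its probe A_55_P2000304 read 0.57, 0.36, 0.54 and 0.43 in Rap1 -/- fat, against 0.42, 0.62, 0.49 and 0.33 in WT fat. The groups overlapped fully, and both the highest and the lowest reading were WT arrays. The difference was 0.01 ± 0.10 (SE; adjusted p = 0.995 by limma), with a 95% interval of the change in signal from -13.5% to 17.4%.

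Terf2 encodes TRF2, which recruits RAP1 to the telomere, and was covered by 3 probes. Probe A_55_P2034345 read 1.64, 1.38, 1.38 and 1.47 in Rap1 -/- fat, against 1.51, 1.65, 1.80 and 1.43 in WT fat. The groups overlapped, with 2 Rap1 -/- arrays below all WT arrays and the other 2 among them. Probe A_52_P391210 read -2.35, -2.40, -2.42 and -2.38 in Rap1 -/- fat, against -2.27, -2.70, -2.11 and -2.31 in WT fat. The Rap1 -/- arrays covered a range of 0.07 and fell inside the WT range of 0.59. Probe A_55_P2034350, designed to the accession NM_001083118, read -0.53, -0.55, -0.70 and -0.77 in Rap1 -/- fat, against -0.93, -0.77, -0.51 and -0.43 in WT fat. Here too the WT arrays spread around the Rap1 -/- arrays. The differences were -0.13 ± 0.11, -0.04 ± 0.13 and 0.02 ± 0.13 (SE), in the order given. Their adjusted p-values by limma ran from 0.905 to 0.991. The slides gave opposite signs for the last of these, 0.31 on slide 1 and -0.26 on slide 2, and for A_52_P391210, 0.11 on slide 1 and -0.19 on slide 2. For A_55_P2034345 they gave -0.07 on slide 1 and -0.19 on slide 2.

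Tinf2 encodes TIN2, the hub of the complex. Its probe A_52_P639551 read -0.13, 0.21, 0.00 and 0.31 in Rap1 -/- fat, against 0.47, -0.04, 0.32 and 0.48 in WT fat. All but 1 of the WT arrays were above all Rap1 -/- arrays, and the remaining WT array, replicate 2, exceeded only 1 of them. The second probe, A_55_P2087865, read 0.26, 0.36, 0.54 and 0.60 in Rap1 -/- fat, against 0.68, 0.35, 0.70 and 0.66 in WT fat. WT replicate 2 was again low, beneath all but 1 of the Rap1 -/- arrays. Differences were -0.21 ± 0.15 (interval -0.55 to 0.13) and -0.16 ± 0.12 (interval -0.43 to 0.11), with adjusted p-values by limma of 0.897 and 0.899. Both probes had the same sign on both slides, at -0.18 and -0.24 for A_52_P639551 and at -0.21 and -0.11 for A_55_P2087865, slide 1 given before slide 2.

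Acd encodes TPP1, which links TIN2 to POT1 and brings telomerase to chromosome ends. Probe A_55_P2042953 read 2.54, 2.55, 2.57 and 2.69 in Rap1 -/- fat, against 2.73, 2.60, 2.61 and 2.64 in WT fat. A single Rap1 -/- array, replicate 4, stood above most WT arrays, and the other 3 lay under all of them. The difference was -0.06 ± 0.08 (SE; adjusted p = 0.931 by limma), with an interval from -15.3% to 8.76%, the narrowest of the members outside Terf2ip. It was -0.12 on slide 1 and 0.00 on slide 2.

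Pot1a encodes the POT1 form needed in mice to keep the damage signal silent at telomeres. Probe A_55_P2115458 read 1.11, 0.97, 0.95 and 0.80 in Rap1 -/- fat, against 1.03, 1.23, 1.04 and 1.08 in WT fat. The highest Rap1 -/- array exceeded all WT arrays but 1, and the remaining 3 were below every WT array. The difference was -0.14 ± 0.10 (SE; adjusted p = 0.897 by limma), with an exact permutation p of 0.143.

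**Figure D3:**
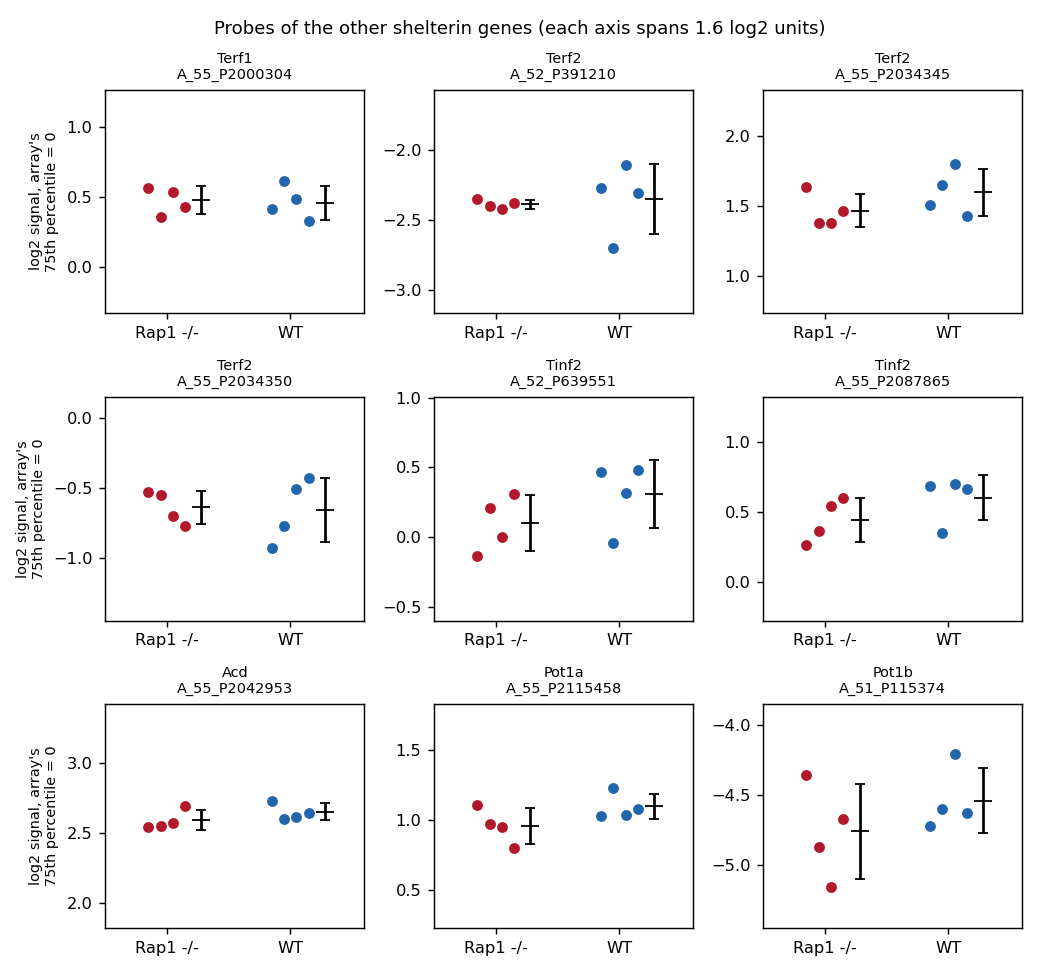
Signal of the 9 probes of the other 6 shelterin genes on each array, in log2 units above or below the 75th percentile of each array, in Rap1 -/- (red, left) and WT (blue, right) fat, with the mean and SD of 4 arrays in black. In every panel the groups overlap, and in both Tinf2 panels WT replicate 2 is the lowest WT array.

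Pot1b encodes the form that controls trimming of the 5′ strand at the chromosome end. Its probe A_51_P115374, printed on 10 spots of each array, was dim. It read -4.36, -4.87, -5.16 and -4.67 in Rap1 -/- fat, against -4.72, -4.60, -4.21 and -4.63 in WT fat. The groups overlapped, with 2 Rap1 -/- arrays below all WT arrays and the other 2 among them. Spots well above background numbered 10, 6, 0 and 9 of 10 on the Rap1 -/- arrays, against 6 of 8, 3 of 9, 8 of 10 and 5 of 10 on the WT arrays once outlying spots were left out. With at least 50% of its spots as the rule, the probe was above background on 3 arrays of each genotype. The log2 SD between spots of 1 array was 0.25, 0.28, 0.55 and 0.25 for Rap1 -/- and 0.20, 0.20, 0.18 and 0.33 for WT. It was widest on the Rap1 -/- array on which no spot passed. The difference was -0.22 ± 0.19 (SE; adjusted p = 0.905 by limma), with an interval from -36.2% to 15.3%, and it was 0.05 on slide 1 and -0.49 on slide 2.

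**Figure D4:**
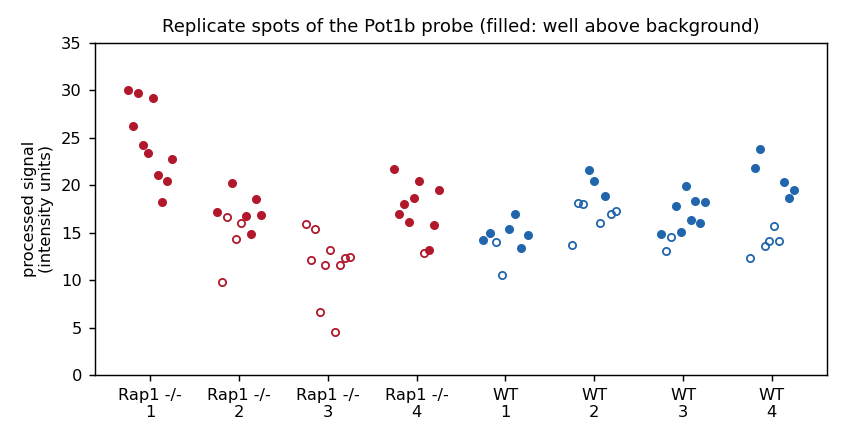
Processed signal in intensity units of each replicate spot of the Pot1b probe on the 4 Rap1 -/- (red, left) and 4 WT (blue, right) arrays, outlying spots left out, with filled circles for spots well above background. Spots range from 4.63 units on Rap1 -/- replicate 3, where none passed, to 30.0 units on Rap1 -/- replicate 1, where all 10 passed.

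**Figure D5:**
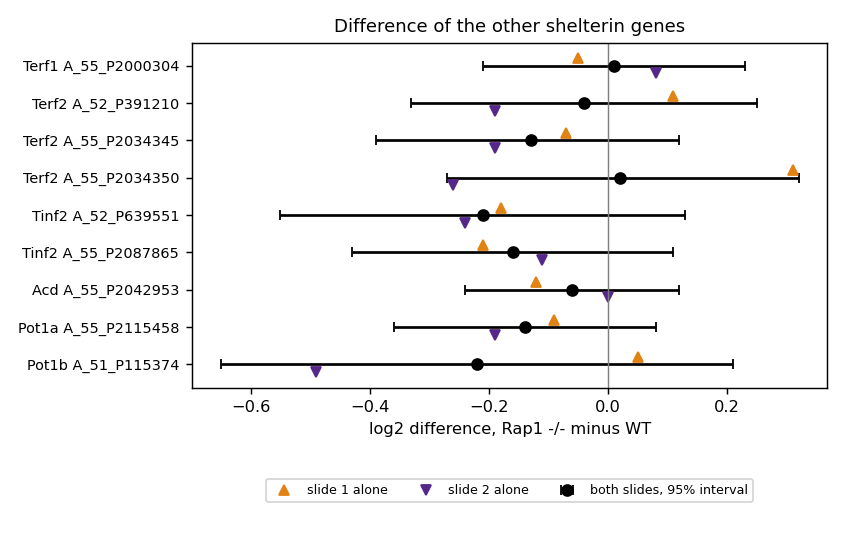
Log2 difference (Rap1 -/- minus WT, horizontal) of the 9 probes outside Terf2ip with 95% intervals (black), and the difference on slide 1 (orange, up) and slide 2 (purple, down) alone. Every interval contains 0, and 4 of the 9 probes have the same sign on both slides. The slides fall on opposite sides of 0 for Terf1 (-0.05 and 0.08, slide 1 before slide 2), A_52_P391210, A_55_P2034350 and Pot1b, and Acd is at 0.00 on slide 2.

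Terf2ip, Terf2 and Acd lie on chromosome 8, with 57 protein-coding genes between Terf2ip and Terf2 and 41 between Terf2 and Acd in the RefSeq table. No difference was detected in Kars, which shares the start region printed above. Kars read 3.76, 3.83, 3.88 and 3.93 in Rap1 -/- fat, against 3.96, 3.83, 4.00 and 4.02 in WT fat, and the groups overlapped. The difference was -0.10 ± 0.08 (SE), with an interval from -0.29 to 0.09 and an adjusted p of 0.904 by limma. Cntnap4, the gene on the other side of Terf2ip, did not pass the filter. Of 14 genes next to a member, 6 were measured and 0 passed the threshold. Cyb5b, a cytochrome b5 gene beside Terf2, had a difference of -0.47 ± 0.19 (unadjusted p = 0.0397, adjusted p = 0.897 by limma) on its brighter probe and -0.03 ± 0.15 on another. Pard6a, a cell polarity gene beside Acd, had -0.18 ± 0.12.

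Genes that work with shelterin were taken as 6 groups of 52 genes, of which 48 were measured, each by its probe with the highest mean. None passed the threshold in either direction and none had an unadjusted p under 0.05, against 4.83% of all probes. Means were higher in Rap1 -/- fat for 21 and lower for 27, with a median difference of -0.02 (0.20 after scaling to the E1A spike-in) and a range from -0.34 to 0.40. Over all probes, 59.6% had a lower mean in Rap1 -/- fat, and the median was -0.04 (0.17 after that scaling). By group, 8 of 9 nuclease and helicase genes were measured (6 higher, 2 lower, median 0.02), as were 15 of 15 genes of the damage response and end joining (8 higher, 7 lower, median 0.04). All 13 tankyrase and other regulator genes were measured (3 higher, 10 lower, median -0.05), all 8 telomerase genes (1 higher, 7 lower, median -0.08) and all 3 genes of the CST complex (2 higher, 1 lower, median 0.02). None of these counts or medians rests on a gene that passed the test.

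Each group is illustrated by its 1 or 2 genes with the smallest unadjusted p. Wrn, the RecQ helicase of Werner syndrome, differed by -0.17 ± 0.10, and Dna2, a nuclease and helicase of DNA replication, by 0.29 ± 0.21. Rpa2, a subunit of the single-strand binding protein RPA, differed by -0.28 ± 0.14, and Rif1, which limits the resection of broken ends, by -0.15 ± 0.10. Among telomerase genes, Nhp2, a subunit of the box H/ACA particle, had -0.16 ± 0.15, and Wrap53, which brings telomerase RNA to Cajal bodies, had -0.12 ± 0.11. In the CST complex, which promotes fill-in of the 5′ strand, Ctc1 had -0.13 ± 0.09 and Ten1 had 0.09 ± 0.12. These are log2 differences ± SE, and each had an adjusted p of at least 0.897 by limma.

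Tnks2 encodes tankyrase 2, which modifies TRF1 with poly(ADP-ribose). On its brighter probe it was the only one of the 48 genes whose groups did not overlap in either direction. Of all probes, 3.16% had no overlap in either direction, and 2.27% were lower without overlap. It read 3.62, 3.56, 3.70 and 3.59 in Rap1 -/- fat, against 3.74, 3.80, 3.77 and 3.71 in WT fat, so that every Rap1 -/- array was below every WT array by a small margin. The difference was -0.14 ± 0.08 (SE; unadjusted p = 0.107 and adjusted p = 0.897 by limma), and the exact permutation p was 0.0286, the smallest possible. The second Tnks2 probe pointed the other way, with overlapping groups and a difference of 0.15 ± 0.12 (adjusted p = 0.903 by limma). Fbxo4, a ubiquitin ligase component that targets TRF1, had -0.19 ± 0.11. Of 4 genes of the meiotic telomere complex only Spdya, an activator of cyclin-dependent kinases, was measured, with a difference of 0.40 ± 0.19 (unadjusted p = 0.0743) and calls above background on 4 Rap1 -/- and 1 WT arrays.

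RAP1 has also been tied to the NF-kB kinases, and all 5 genes of NF-kB kinases and subunits were measured. None passed, 2 had higher and 3 lower means, and the median difference was -0.05, beside -0.04 for all probes. Chuk, which encodes IKK alpha, had -0.10 ± 0.08 and Rela, which encodes the p65 subunit, -0.09 ± 0.08. The small GTPases that share the name RAP1 are products of Rap1a and Rap1b and have no relation to Terf2ip. Rap1b averaged 3.57 in Rap1 -/- fat and 3.43 in WT fat, a difference of 0.13 ± 0.09 (adjusted p = 0.897 by limma). The Rap1a probe was dim, at -4.20 ± 0.57 in Rap1 -/- fat and -4.91 ± 1.09 in WT fat (SD, n = 4 each), above background on 3 Rap1 -/- and 2 WT arrays, with a difference of 0.70 ± 0.53 (adjusted p = 0.899 by limma).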

How the data were processed

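Total RNA of gonadal white fat from 8 mice was applied by the authors to Agilent mouse arrays in a single colour. Per the file headers, Feature Extraction 10.7.3.1 quantified the images and the array design used mm9. The study's methods name another version of Feature Extraction, and the header version is given here. The deposited scanner files give processed signals in linear intensity units, with flags for spots well above background and outlying. The authors also deposited a table of log2 values, which normexp background correction with an offset of 50 and quantile normalisation recreate closely. No columns were left unmapped.

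Here processed signals were taken to log2 and set relative to the 75th percentile of each array. Control and outlying spots were left out and spots of 1 probe averaged. A probe counted as well above background on an array where at least 50% of its spots did, and was tested where this held on at least 4 of 8 arrays. The 33982 probes were fitted together with limma 3.58.1 (R 4.3.3), Rap1 -/- against WT, with Benjamini-Hochberg adjustment, and single values were tested with two-sided exact permutation over arrays. The fit was also run on simulated data with independent normal noise. That simulation held no background floor and no slide or position effect, so it cannot vouch for the fit where these matter. The number of arrays limits the precision. Accessions were named through the RefSeq table of GRCm38.p6.

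Described genes were all probes of the 7 members, and of the other telomere genes any past the threshold or else up to 2 per group with the smallest unadjusted p, with Rap1a, Rap1b, the genes beside Terf2ip and the 3 named probes nearest in profile to each Terf2ip probe. Cyb5b, Pard6a and their groups follow the same rule. Members and lists were chosen with earlier results of these data known. Alternatives were other scalings, background corrections, filters, variance models, blocks, single slides, single genes per fit, and leaving out each array.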

Additional observations from a re-analysis of the deposited data

Results flagged for a closer look

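Of 22 groups of 4 arrays examined, 11 probes in each genotype, 1 held an array far from the others by Dixon's criterion, which chance alone meets in about 1 group in 20. The Tinf2 probe A_55_P2087865 read 0.35 on WT replicate 2, while the other WT arrays read 0.66 to 0.70. The gap was 0.885 of the group's whole range, above the critical value for 4 samples. On the other Tinf2 probe the same array was also the lowest WT array, at -0.04, without meeting the criterion.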

How the results depend on the processing

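With the replicate number as a block, 1 probe was higher and 1 lower, as without it, and the Terf2ip differences stayed -7.69 and 2.38; same-numbered arrays correlated between -0.21 and -0.104, 0 of 8 correlated best with their own number, and the labels tie nothing to it. The Terf2ip probes kept their signs under every alternative. A_52_P381806 passed in 18 of 19 and A_55_P2094079 in 18 of 20, with leave-one-out ranges of -7.79 to -7.62 and 2.36 to 2.43. The tally of A_52_P381806 adds no support, since this probe met the main filter only through WT fat. On slide 1 alone, A_55_P2094079 had 2.37 (adjusted p = 0.992 by limma), 0 probes were higher and 1 member probe was called. On slide 2 alone, the probes had -7.72 (adjusted p = 0.0536) and 2.40 (adjusted p = 0.612), with 0 probes higher, 0 lower and 0 member probes called; 1503 and 1235 probes had an unadjusted p under 0.05 on slides 1 and 2. Each slide holds 2 arrays per genotype. Requiring all 8 arrays above background removed A_52_P381806 and Pot1b, leaving 0 probes lower and 1 member probe called (1577 probes at an unadjusted p under 0.05). Lower probes numbered 2 with normexp, the deposited table and a trended robust variance, and at an adjusted p of 0.15 there were 2 higher and 2 lower; causes were not tested. As 1 value per gene, Terf2ip was called higher by the probe with the highest mean over all 8 arrays, A_55_P2094079. It was called lower by the mean of its probes. In WT fat alone A_52_P381806 was the brighter probe, with a mean of 0.26 against -1.41.

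None of the 9 other probes passed under any alternative, but signs near 0 turned. With median scaling, Terf2 A_52_P391210 had 0.02 and Acd 0.00. In the deposited table, Acd had 0.00, Pot1b 0.05 and the median of the 9 was 0.00. Scaling to E1A spike-ins, under which the median of all probes was 0.17 in place of -0.04, gave 0.17 for A_52_P391210, 0.08 for A_55_P2034345, 0.00 and 0.05 for Tinf2, 0.15 for Acd and 0.07 for Pot1a, with medians of 0.08 for the 9 and 0.20 for the telomere genes. Slide 1 alone gave -0.05 for Terf1, 0.11 for A_52_P391210 and 0.05 for Pot1b, and slide 2 alone -0.26 for A_55_P2034350 and 0.00 for Acd. Leaving out 1 array gave -0.03 to 0.06 for Terf1, -0.16 to 0.04 for A_52_P391210 and -0.07 to 0.10 for A_55_P2034350. The other probes kept their sign, with ranges of -0.19 to -0.06 for A_55_P2034345, -0.24 to -0.10 for Tinf2 A_55_P2087865, -0.09 to -0.03 for Acd and -0.19 to -0.09 for Pot1a. Tinf2 A_52_P639551 ranged from -0.32, without WT replicate 2, to -0.13, without Rap1 -/- replicate 1. Pot1b ranged from -0.36, without Rap1 -/- replicate 1, to -0.09, without Rap1 -/- replicate 3. Pot1b, near background, is the least certain.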
